A study of Populus davidiana with 6 samples.

Results

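In leaves of the aspen Populus davidiana, 153 genes that stood at a low level in control plants at least doubled after plants were exposed to open air for about 10 minutes. These genes were chosen from 40537 listed genes by 3 conditions. The gene had to span at least 300 bp of the reference, its mean over the control libraries had to lie from 1 to under 10 FPKM, and its lowest air-dried value had to be at least 2 times its highest control value. FPKM is a fragment count corrected for how long a transcript is and how deeply its library was read, and a gene's value is the sum over its transcripts. The 153 genes made up 1.63% of the 9385 genes with the same span and control level. Because the air-dried and control values themselves chose the genes, their differences are given as descriptions, and no finding rests on them.

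The study read leaf RNA of the cultivar Seogwang9, which its labels call drought tolerant, in 6 libraries. Plants of both groups were grown from internodes on MS medium with sucrose and naphthalene acetic acid and were about 6 weeks old. The control group had 3 libraries, and the sources used here do not say whether those plants were also lifted and washed. The air-dried group had 3 libraries from plants taken out of the medium, rinsed with sterile water and left in open air. Nothing in the labels tells whether each library came from its own plants, so spreads and p-values measure only the variation between these samples, which may be technical. In RNA of a whole leaf, more RNA per cell and more cells that use a gene cannot be told apart.

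A leaf taken out of moist surroundings loses water faster than it is supplied, cell turgor falls, and abscisic acid and calcium signals close the stomata and change the use of many genes. Lifting, washing and moving air also touch the plant, and plants respond to touch and handling within minutes. In Arabidopsis, yeast and mouse, genes whose transcripts respond quickly to stress have been described as having few introns. The deposited gene name column was empty for every transcript, so none of the 153 genes can be given a name or a role, none of them could be placed in a pathway, and the leaf identity of the samples could not be checked against marker genes. Accessions are given for 2 genes and the others are given by chromosome, start and end as deposited. The sources used here do not name the genome build.

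In controls, these genes stood below the middle of the 22356 genes tested, those averaging 1 FPKM or more across all 6 libraries, as the rule requires. Their control means ran from 1.01 to 9.998 FPKM with a median of 3.18 FPKM. The median gene stood at percentile 16.6 of tested genes and the highest at percentile 43.0. After drying, their means ran from 2.55 to 244 FPKM with a median of 14.9 FPKM, at percentile 55.6. None had a control mean above the median of all tested genes, which was 12.5 FPKM, while 87 had an air-dried mean above it. Together the 153 genes summed to 557, 576 and 581 FPKM in controls 1, 2 and 3, and to 3572, 3745 and 3430 FPKM in air-dried 1, 2 and 3.

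**Figure D1:**
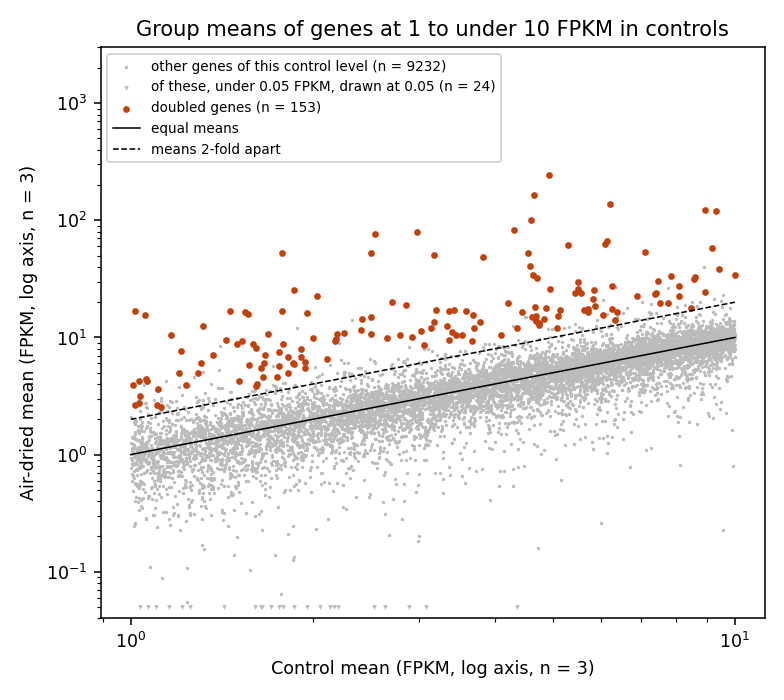
Air-dried mean against control mean in FPKM, both on log axes, n = 3 libraries each. Orange points are the 153 doubled genes, grey points the other genes of the same span and control level, and the lines mark equal means and means 2-fold apart. The orange points lie above the dashed line, as the rule requires, and the highest reaches 244 FPKM.

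The ratio of air-dried to control means had a median of 4.03, with the middle 50% of genes between 3.14 and 6.06 and a range from 2.12 to 49.6. Measured by its lowest air-dried over its highest control value, the separation was at least 3 times in 82 genes, at least 5 times in 35, at least 10 times in 13 and at least 20 times in 3. In 104 genes the air-dried mean was at least 10 FPKM, in 45 at least 20 FPKM, in 18 at least 50 FPKM and in 6 at least 100 FPKM. In the limma fit across all tested genes with Benjamini-Hochberg adjustment, 153 of 153 passed an adjusted p of 0.05 on the higher side, with a highest adjusted p of 0.02249. Among all genes tested 5.6% did so. The rule used that same contrast, so nothing is read from the difference.

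POPTR_0009s16050 stood furthest from its controls. This gene lies on chromosome 9 (12284978 to 12286144, plus strand). It measured 4.46, 4.74 and 5.58 FPKM in the 3 controls and 240.1, 232 and 261 FPKM in the 3 air-dried libraries. All 3 air-dried values lay close together, far above all 3 control values, and no other of the 153 genes reached so high an air-dried mean. Its mean rose 49.6-fold. POPTR_0015s08550, on the plus strand of chromosome 15 (9842656 to 9845099), was at 2.096, 1.49 and 1.75 FPKM in controls and at 51.7, 49.9 and 57.4 FPKM after drying. Its ratio of means was 29.8, and its air-dried libraries again lay within a narrow band.

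The third gene by separation lay on the plus strand of chromosome 10 (17657254 to 17658945) and had 2 known transcripts. Its controls measured 6.04, 6.18 and 6.44 FPKM, and its air-dried libraries 131, 136 and 143 FPKM. The spread within each group was small, at 3.27% of the mean in controls and 4.37% after drying, and the log2 fold change was 4.25 (SE 0.0665). On the minus strand of chromosome 5 (24433589 to 24435408) a gene went from 2.66, 1.99 and 2.84 FPKM to 52.9, 51.1 and 52.6 FPKM. Its 3 air-dried values were nearly equal, with a coefficient of variation of 1.88%. A plus-strand gene on chromosome 4 (20365509 to 20366795) had 4.92, 3.69 and 5.19 FPKM in controls and 84.02, 107 and 113 FPKM after drying, with air-dried 1 the lowest of the 3.

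Chromosome 16 held 3 of the 12 most widely separated genes, all on the plus strand and far from one another. The gene at 206842 to 207387 measured 3.69, 2.001 and 1.93 FPKM in controls and 99.3, 71.2 and 57.5 FPKM after drying. The gene at 3541109 to 3541480, which spans 372 bp, measured 2.23, 2.32 and 4.37 FPKM and then 55.3, 111 and 70.6 FPKM. Both short genes varied more between libraries than the others: air-dried 1 was highest in one and lowest in the other, and their coefficients of variation after drying were 28.03% and 36.3%. The gene at 5036503 to 5037582 started higher, at 9.19, 9.57 and 8.01 FPKM, and reached 129.8, 129 and 111 FPKM, with a coefficient of variation of 8.51%.

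The remaining 4 of the 12 lay on chromosomes 14, 9, 6 and 1. The gene at 1643749 to 1644810 on chromosome 14 had 4.44, 5.41 and 3.07 FPKM in controls and 87.5, 87.9 and 74.7 FPKM after drying. Chromosome 9 (9691024 to 9692266, minus strand) held the one with the lowest control level, at 0.571, 1.198 and 1.28 FPKM, against 17.8, 15.5 and 17.1 FPKM after drying. It thus stayed at a modest level even though its mean rose 16.5-fold. On chromosome 6 (11415819 to 11416430) the controls were 4.32, 3.27 and 1.96 FPKM and the air-dried values 57.6, 48.2 and 47.3 FPKM. On chromosome 1 (12224379 to 12225678) the controls were 10.06, 7.07 and 10.7 FPKM and the air-dried values 119.8, 116 and 127 FPKM. In each of these 12 genes the lowest air-dried library stood at least 10.8 times above the highest control. The 12 log2 fold changes ran from 3.16 to 5.37, and their highest limma adjusted p was 0.0008431.

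**Figure D2:**
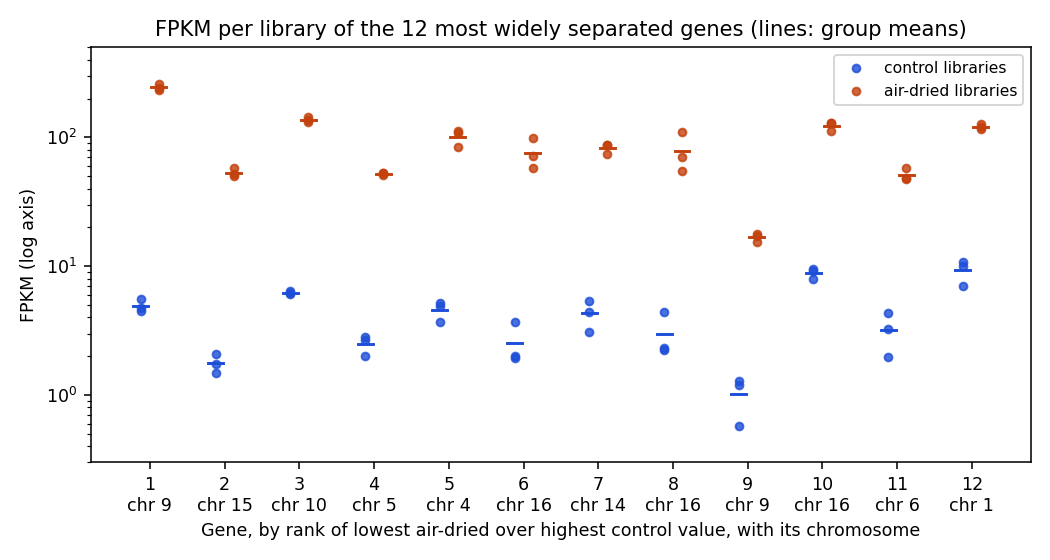
FPKM on a log axis for each library of the 12 genes with the largest ratio of the lowest air-dried to the highest control value, numbered by that rank with their chromosomes. Blue points are control libraries, orange points air-dried libraries, and short lines the group means (n = 3 each). The orange points of gene 9 lie lowest, between 15.5 and 17.8 FPKM, and those of gene 1 highest, between 232 and 261 FPKM.

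The next 12 genes by separation had ratios of the lowest air-dried to the highest control value between 6.76 and 10.4. The longest of them was a chromosome 1 gene spanning 7710 bp (45880438 to 45888147, 3 transcripts), which went from 5.61, 4.61 and 3.41 FPKM to 55.7, 51.0 and 50.4 FPKM. A plus-strand gene of chromosome 15 (1413253 to 1415044) had 6.38, 5.78 and 6.15 FPKM in controls and 58.3, 64.01 and 66.8 FPKM after drying. Both rises were nearly even over the air-dried libraries. On the plus strand of chromosome 2, a gene at 12456751 to 12457867 went from 5.24, 4.01 and 4.47 FPKM to 38.5, 42.07 and 41.1 FPKM, and a gene at 8930778 to 8932468 from 1.797, 2.54 and 1.76 FPKM to 24.2, 22.4 and 21.2 FPKM. On the minus strand of chromosome 11 (18387032 to 18388798) the controls were 1.94, 2.24 and 1.69 FPKM and the air-dried values 17.5, 15.5 and 15.3 FPKM. Shorter genes of the class were less even. A chromosome 13 gene spanning 751 bp (14860460 to 14861210) went from 1.24, 0.859 and 1.06 FPKM to 11.7, 21.9 and 13.2 FPKM, with air-dried 2 the highest. A chromosome 18 gene spanning 773 bp (3092843 to 3093615) went from 4.6, 4.13 and 2.77 FPKM to 62.8, 47.2 and 35.99 FPKM, and a chromosome 15 gene spanning 605 bp (419084 to 419688) from 8.19, 6.07 and 4.18 FPKM to 87.5, 55.6 and 56.7 FPKM. In both, air-dried 1 was the highest library and control 1 the highest control. These genes were picked after their values were seen. A 316 bp gene on chromosome 18 (5529609 to 5529924) had the smallest ratio of these 12 and was the most variable of the 153. It was listed at 0 in control 1 and measured 9.27 and 4.65 FPKM in controls 2 and 3, then 122.5, 309.9 and 62.7 FPKM in air-dried 1, 2 and 3. Its air-dried mean of 165 FPKM was the second highest of all, but its standard deviation there was 129 FPKM (n = 3). Its log2 fold change of 5.12 moved to 4.14 without control 1, 5.82 without control 2 and 4.52 without air-dried 2. Its limma adjusted p went from 0.02249 to 0.06934 with a pseudocount of 0.1, 0.0532 without control 3, 0.06496 without air-dried 1 and 0.07489 without air-dried 2.

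Of the 8 genes with a coefficient of variation above 30% after drying, 3 were highest in air-dried 1 and 5 in air-dried 2. A chromosome 11 gene (15979822 to 15980579) measured 6.85, 9.18 and 5.22 FPKM in controls and 80.6, 37.2 and 42.4 FPKM after drying. A gene on scaffold_650 (9365 to 9943) measured 4.07, 6.55 and 4.21 FPKM and then 36.3, 22.3 and 18.6 FPKM. The groups still did not overlap in either gene, as the rule demands. Calls of 2 further genes, which start at 16741616 on chromosome 2 and at 14527273 on chromosome 4, were lost without 1 library: the limma adjusted p was 0.05302 and 0.05223 for the first without controls 1 and 2, and 0.05539, 0.05064 and 0.06216 for the second without control 1, air-dried 1 and air-dried 2. For the first, the log2 change was 1.00 with all libraries and 0.98 and 1.01 in those fits, and for the second it was 1.46 and then 1.47, 1.33 and 1.42. The coefficient of variation was above 30% over controls in 24 genes. Its median was 10.4% after drying and 13.6% in controls, beside 13.9% and 12.8% in all genes of the same span and control level; the rule favours genes with little spread.

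Clustering the libraries on transcript FPKM, with the number of sets fixed at 2, gave sets that cross the groups. Set A held controls 1 and 2 and air-dried 1, and set B held control 3 and air-dried 2 and 3. The sets were defined by Spearman correlations between libraries over 41577 transcripts. These ran from 0.817 to 0.863 within a set and from 0.733 to 0.773 between sets. The labels name no batch. Relative to control 1, sequencing depth read from the steps of low values was lowest in air-dried 1 (0.895) and highest in control 3 (1.33). The rule makes each gene at least double in both sets. It used these same libraries and favours genes whose libraries are alike, so the sizes are given as descriptions. The median ratio of means was 3.95 in set A and 3.945 in set B. In 134 genes the ratios of the sets lay within 1.5 times of each other, and the ratio was larger in set A in 78 genes and in set B in 75. No single air-dried library led: air-dried 1, 2 and 3 held the highest value in 51, 49 and 53 genes and the lowest in 54, 50 and 49. Among controls the highest value fell to control 1 in 36 genes, to control 2 in 57 and to control 3 in 60.

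**Figure D3:**
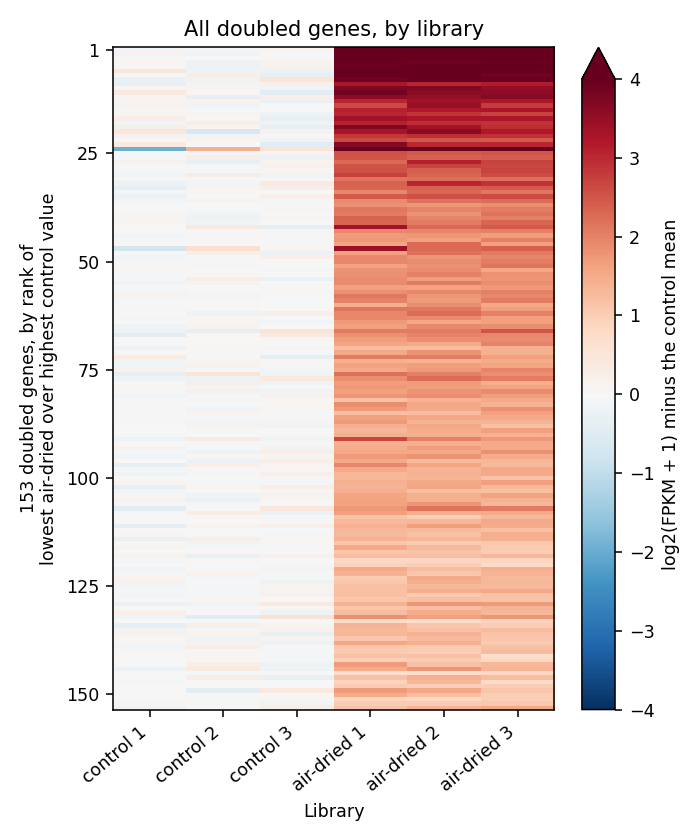
Difference of log2(FPKM + 1) from the control mean for the 153 doubled genes (lines, by rank of separation) in each of the 6 libraries (columns). Red is above and blue below the control mean, and the colour is capped at 4. The 3 air-dried columns lie above the control mean throughout, and the control that is listed at 0 belongs to the 316 bp gene of chromosome 18.

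At the edge of the choice the values ran on without a break. The 3 genes with the smallest ratio of the lowest air-dried to the highest control value were at 2.03, 2.02 and 2.001, and the 3 nearest genes outside it at 1.996, 1.99 and 1.98. Just inside, a chromosome 6 gene (23531763 to 23533445) measured 5.197, 6.14 and 7.46 FPKM in controls and 14.9, 17.8 and 20.03 FPKM after drying. Just outside, a chromosome 9 gene (11270664 to 11272542) measured 1.65, 1.82 and 1.89 FPKM and then 3.77, 4.21 and 4.17 FPKM. At the lower end of the control range, genes on chromosomes 8 (10404891 to 10410650) and 18 (2269644 to 2271490) had control means of 1.01 and 1.02 FPKM and air-dried means of 3.93 and 2.63 FPKM. With known transcripts only, the chromosome 18 gene had a limma adjusted p of 0.1371. Outside that end, the nearest 2 genes that met the other conditions had control means of 0.924 and 0.914 FPKM and air-dried means of 4.72 and 6.29 FPKM. At the upper end, genes on chromosomes 1 (18611449 to 18613665) and 8 (4514160 to 4516124) had control means of 9.39 and 9.998 FPKM and air-dried means of 38.4 and 34.2 FPKM. Outside that end, 2 genes with control means of 10.2 and 10.2 FPKM reached 37.3 and 51.98 FPKM.

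The genes covered short stretches of the reference. Their median span was 1683 bp, with the middle 50% between 1042 and 2426 bp, beside a median of 3232 bp for all genes of the same span limit and control level. Of the comparison genes spanning 600 to under 1000 bp, 4.07% were in the doubled class, and of those spanning 1000 to under 2000 bp, 4.18%. The share was 1.23% at 2000 to under 4000 bp and 0.386% at 4000 bp or more. At 300 to under 600 bp it was 1.61%, from 8 of 496 genes, and the spread between libraries was largest there, with a median coefficient of variation of 45.8% over the air-dried libraries of comparison genes. The mirror class, in which the highest air-dried value was at most 0.5 times the lowest control value, held 212 genes with a median span of 2244 bp. Its shares were 3.31% and 2.93% in the classes where doubled genes were most frequent, 4.44% at 300 to under 600 bp and 1.08% at 4000 bp or more. These shares are descriptions, and level and spread were not matched between span classes.

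Most doubled genes had a single listed transcript. This held for 95 of 153 (62.1%), for 33.6% of comparison genes and for 49.5% of the mirror class. Of comparison genes with 1 transcript 3.01% were doubled, of those with 2 transcripts 1.69%, and of those with 3 or more 0.628%, while 3.33%, 3.05% and 1.19% were in the mirror class. Lower control levels also held larger shares, with 2.73% at 1 to under 2 FPKM, 1.64% at 2 to under 5 FPKM and 1.06% at 5 to under 10 FPKM, and so did those of the mirror class, with 3.09%, 2.47% and 1.65%. The genes were spread evenly over the strands, with 78 on the plus strand, 74 on the minus strand and 1 without a strand. They overlapped another listed gene in 16.3% of cases, beside 16.8% of comparison genes. All 19 numbered chromosomes held at least 1 of them, from 1 on chromosome 19 to 21 on chromosome 1, and 3 lay on scaffolds; as shares of the comparison genes of a chromosome these counts ran from 0.391% on chromosome 19 to 2.47% on chromosome 9.

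**Figure D4:**
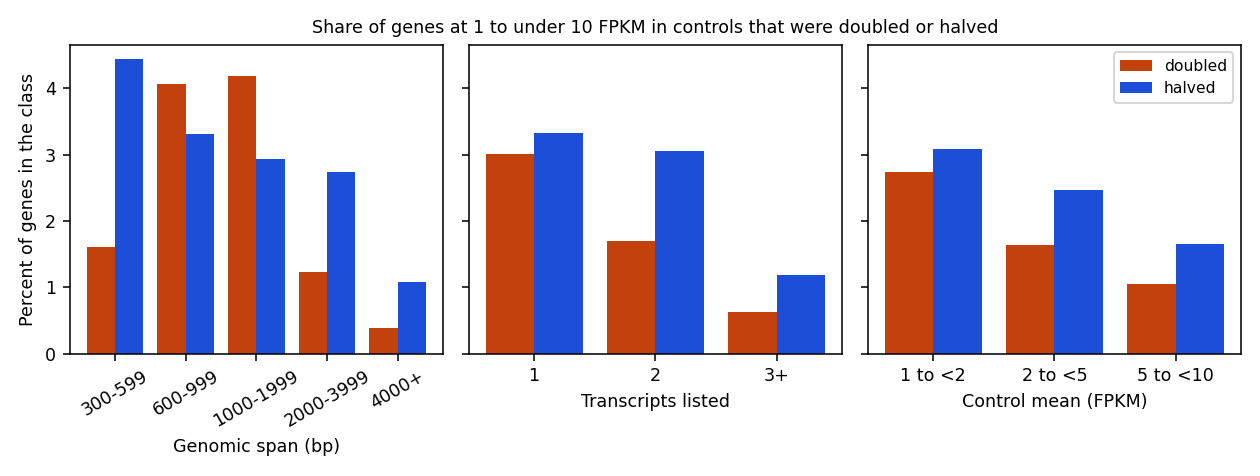
Percent of genes with a control mean of 1 to under 10 FPKM and a span of at least 300 bp that were in the doubled class (orange) or in the mirror class of halved genes (blue), by genomic span, by number of listed transcripts and by control mean. The orange bars are highest at 600 to under 2000 bp and fall to 0.386% at 4000 bp or more.

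The same ratio was also asked of genes at other control levels. With a control mean of at least 10 FPKM, 64 genes met it, with a median ratio of means of 2.86 and a median span of 1986 bp. With a control mean under 1 FPKM and an air-dried mean of at least 1 FPKM, 114 genes met it, with a median span of 1092 bp and 86.8% with a single transcript. The same contrast chose all these classes, so no test of their differences was made.

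The gain of doubled genes with more than 1 transcript was also taken apart by transcript. The 58 such genes held 199 transcripts, 93 of them known and 106 assembled from the reads. The transcript that gained most held a median of 80.2% of its gene's gain, and it was a known transcript in 37 genes and an assembled one in 21. It was picked for its gain, which raises its share, and no such share is given for comparison genes. In 31 of the 58 genes the same transcript led in all 6 libraries. One gene had another leading transcript after drying, shared by its libraries: on the minus strand of chromosome 6 (4813934 to 4815329) a known and an assembled transcript cover the same stretch. The assembled one measured 1.08, 1.58 and 0.829 FPKM in controls and 0.251, 2.74 and 0.000569 FPKM after drying, while the known one was below 0.001 FPKM in each control and measured 10.97, 7.22 and 10.6 FPKM after drying. The division of reads between transcripts that share most of their sequence is an estimate by the authors' software, and its error is not given.

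Summing known transcripts alone left most but not all of these rises. Of 153 genes, 2 had no known transcript and 8 had a mean under 1 FPKM in known transcripts; of the 143 tested, 130 passed the limma threshold on the higher side and 13 did not. Over all genes tested on known transcripts 3.95% did so, and since the chosen genes share this contrast, nothing is read from the difference. The 13 were all genes with several transcripts, and 2 of them had a log2 change below 0. A chromosome 5 gene (25477547 to 25479000) measured 2.05, 2.16 and 1.39 FPKM in controls and 22.4, 28.03 and 25.5 FPKM after drying over both transcripts. Its known transcript held 49.1% of the control level but 8.74% of the air-dried level, and measured 0.589, 1.52 and 0.639 FPKM in controls and 4.76, 0.671 and 1.21 FPKM after drying (limma adjusted p = 0.5899). A chromosome 1 gene (40919301 to 40922415, 4 transcripts) was steady as a sum, with 7.36, 8.39 and 7.75 FPKM in controls and 32.7, 31.4 and 35.4 FPKM after drying. Its 3 known transcripts summed to 0.0105, 8.37 and 5.40 FPKM in controls and to 0.0156, 31.4 and 0.365 FPKM after drying, so its value moved between known and assembled transcripts from library to library. These 2 genes were picked after their values were seen. In the 53 genes with both kinds, known transcripts held a median of 59.5% of the control level and 68.95% of the air-dried level.

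The 2 genes without a known transcript were short. One, spanning 304 bp on chromosome 2 (14759049 to 14759352) with no strand, measured 3.65, 2.76 and 6.92 FPKM in controls and 17.5, 15.1 and 16.5 FPKM after drying. The other, spanning 490 bp on the plus strand of chromosome 14 (6826874 to 6827363), measured 0.549, 3.05 and 1.74 FPKM and then 26.6, 11.5 and 12.5 FPKM, with air-dried 1 the highest. It lies wholly inside another of the 153 genes, on the minus strand (6825714 to 6828375), whose accession it carries with a suffix. That gene measured 4.15, 4.60 and 5.27 FPKM in controls and 15.04, 12.3 and 14.5 FPKM after drying. They are the only pair among the 153 that are next to each other in the order of listed genes. The sources used here do not state that strand was used in counting, so reads of the pair may not have been told apart.

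Some of the 153 genes lay near one another with other genes between them. On chromosome 10, the third gene by separation (17657254 to 17658945) was followed 8892 bp further on the same strand by a gene at 17667838 to 17670159, with 2 listed genes between them, neither of which reached the 1 FPKM needed for a test. This second gene measured 6.43, 5.63 and 5.51 FPKM in controls and 17.3, 18.5 and 20.2 FPKM after drying, a far smaller rise than that of its neighbour. On chromosome 5, 11288 bp separated a locus spanning 54737 bp (14418323 to 14473059) from a gene at 14484348 to 14485262. The long locus went from a mean of 1.54 FPKM to 16.4 FPKM, and the gene beside it from 1.06 FPKM to 4.38 FPKM. On chromosome 4, 3 of the genes lay between 20335377 and 20410248. Their means went from 2.25 FPKM to 10.96 FPKM, from 4.60 FPKM to 101.4 FPKM and from 1.94 FPKM to 5.50 FPKM, so the middle one stood apart from both. It cannot be told here whether such nearby genes are similar enough to take each other's reads.

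Spans of 5 of the 153 loci exceeded 20000 bp, and the longest took in many other genes. A chromosome 17 locus (1592013 to 1872050) covered 280038 bp with 20 transcripts and overlapped 40 other listed genes. It measured 2.70, 3.51 and 2.86 FPKM in controls and 11.2, 11.7 and 10.8 FPKM after drying. Known transcripts held 23.5% of its control level and 15.6% of its air-dried level, and on them alone its limma adjusted p was 0.1118. A locus on scaffold_39 (1613 to 211166) overlapped 16 others and went from 1.11, 1.13 and 1.07 FPKM to 2.48, 2.45 and 2.94 FPKM. The groups do not overlap in either, but each sums transcripts from a long stretch, so the value cannot be assigned to a single gene.

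The genes beside the doubled ones were examined because position chose them. Genes that met the rule were passed over, so the rule still limits which values the neighbours can have. The nearest tested gene on each side that was not itself one of the 153 gave 296 distinct neighbours. Of these, 24 (8.11%) rose and 21 (7.09%) fell in the limma fit at an adjusted p under 0.05. Over all tested genes 5.6% rose and 7.44% fell, but that set includes the 153 doubled genes, which all rose. The neighbours leave them out, so the shares of rising genes are not of like sets. The median log2 change of the neighbours was 0.041, beside 0.0080 for all tested genes. The count of rising neighbours was 15 of 159 on the same strand, 5 of 54 in divergent pairs, whose starts face each other, and 4 of 72 in convergent pairs. The count of falling neighbours was 14, 2 and 5 in the same order. At gaps under 5 kb, 7 of 96 neighbours (7.29%) rose and 6 fell. At gaps of 5 kb or more, 16 of 187 (8.56%) rose and 15 fell. Among those, 9 of the 58 at 20 kb or more (15.5%) rose and 6 fell. The rising share was thus not larger among the nearest neighbours. The count of rising neighbours went from 24 to 11, 10 and 15 without controls 1, 2 and 3 and to 15, 13 and 16 without air-dried 1, 2 and 3, while the share over all genes was then 2.99% to 4.01%. No test of the difference between these shares was made, and the count rests on few genes.

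A few neighbours changed strongly. On chromosome 6 the doubled gene at 11415819 to 11416430 stood between a plus-strand gene 11333 bp before it, which rose from 0.509, 0.0869 and 0.185 FPKM to 14.3, 16.8 and 15.1 FPKM, and one 32606 bp after it, which rose from 25.4, 25.8 and 26.6 FPKM to 54.2, 60.2 and 54.6 FPKM. On chromosome 1 a gene at 41083163 to 41084674, on the same strand as the doubled gene 33183 bp after it, rose from 15.4, 15.2 and 14.8 FPKM to 87.3, 84.7 and 88.2 FPKM, a log2 fold change of 2.45 (SE 0.0598, limma adjusted p = 4.238e-05). On chromosome 13 a gene at 10471259 to 10514111 rose from 22.03, 23.7 and 24.5 FPKM to 112.5, 105 and 106 FPKM beside a doubled gene 38872 bp away. These 4 neighbours were chosen after their values were seen. On chromosome 9 the gene just outside the choice (11270664 to 11272542) was itself the neighbour of a doubled gene 19838 bp before it.

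Other neighbours changed in the opposite direction. The largest fall among the neighbours that passed the threshold belonged to a chromosome 8 gene (13526264 to 13530169), 1864 bp from a doubled gene on the same strand. It fell from 4.55, 4.48 and 4.18 FPKM to 1.51, 1.34 and 1.205 FPKM, with a log2 fold change of -1.20 (SE 0.0960, limma adjusted p = 0.001161). The doubled gene itself (13522204 to 13524399) measured 5.73, 6.15 and 7.29 FPKM in controls and 17.4, 15.6 and 16.7 FPKM after drying. Neighbours on chromosomes 4 (11182878 to 11184474), 18 (1913191 to 1918000) and 1 (23494257 to 23495983) fell from means of 4.34, 2.65 and 4.06 FPKM to 1.61, 0.915 and 1.67 FPKM. These lay further from a doubled gene than the chromosome 8 neighbour did. The doubled genes lay at 11116525 to 11117428 on chromosome 4 and at 1901567 to 1902922 on chromosome 18. On chromosome 1 the gap was 7006 bp. On chromosome 16 the doubled gene at 206842 to 207387 had one neighbour 256 bp before it, with a mean of 7.04 FPKM in controls and 12.5 FPKM after drying, and one 7071 bp after it, with 21.7 FPKM and 13.9 FPKM. This pair was also picked after its values were seen.

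**Figure D5:**
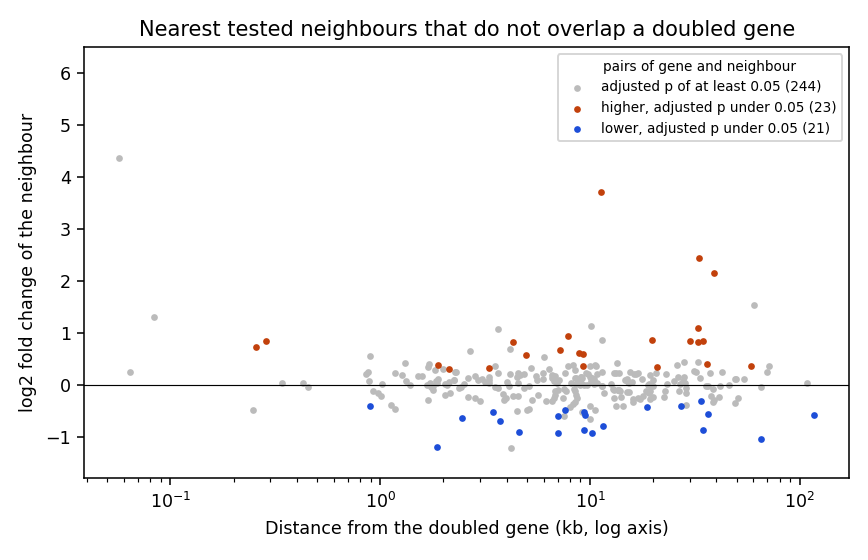
Log2 fold change (on log2(FPKM + 1), air-dried against control) of the nearest tested neighbours that do not overlap a doubled gene, against their distance in kb on a log axis. Orange and blue points passed a limma adjusted p of 0.05 on the higher and lower side, and a neighbour of 2 doubled genes appears once for each. Both colours occur at short and long distances, and the grey point furthest up is a short strandless locus of chromosome 7 with a log2 fold change of 4.38 and an adjusted p of 0.2542.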

How the data were processed

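Leaf poly(A) RNA of 3 control and 3 air-dried samples was read as 100 bp pairs, per the labels' protocols. The authors deposited FPKM values for 112919 transcripts, per the file headers; per the submitters' processing notes, TopHat and Cufflinks were used, with no version stated, and no source used here names the build. FPKM was summed per gene and used without rescaling. The total over all transcripts ran from 1.67e+06 FPKM in air-dried 3 to 3.55e+06 FPKM in control 2. Very short transcripts held from 37.8% of the total in control 1 to 70.0% in control 2. The median of tested genes lay between 11.8 FPKM in air-dried 2 and 12.6 FPKM in control 2. The 22356 genes averaging 1 FPKM or more were tested on log2(FPKM + 1) with limma 3.58.1 in R 4.3.3 (lmFit, eBayes with a trend, two-sided, Benjamini-Hochberg adjustment over all tested genes, threshold 0.05); all 153 chosen genes passed this filter. This log2 scale understates changes of low genes. The fit was also run on simulated data to check the code. The simulated noise was drawn without regard to a gene's level, so that run does not show the error of low genes. No source used here gives read numbers, so no counting interval is given. Members, lists and comparisons were chosen with earlier results of these data known. Genes were described by fixed rules. These were the 12 largest separations, those at each limit of the rule, adjacent genes, and those without known transcripts. They also covered those with another leading transcript, the 4 highest and 4 most variable after drying, and the 4 neighbours that fell most. Other genes described fall outside these rules and should be read as picked after their values were seen, also where no mark says so. No gene list could be applied without names. Alternatives were pseudocounts of 0.5 and 0.1, filters, upper quartile scaling, no trend, the replicate block, the library set as a term, known transcripts, other limits of the rule, and each library left out.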

Additional observations from a re-analysis of the deposited data

How the results depend on the processing

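Of 549 alternative values of the 37 genes named by the fixed rules, 12 fell short of the threshold; none changed direction, which their choice on this contrast largely fixes. Between 149 and 153 of the 153 genes were called higher under every setting except known transcripts only, where 130 of 143 were. With the filter at a mean of at least 2 FPKM, some of the 153 fell below it and were not tested, so they could not be called there. Over all genes tested the share called higher was 2.99% to 5.79%, and 3.95% on known transcripts only. The choice of genes largely fixes their counts. The highest limma adjusted p among them rose to 0.06934 with a pseudocount of 0.1, 0.06566 with the replicate block and 0.9719 with known transcripts only, and lay between 0.04636 and 0.07489 with single libraries left out. Replicate numbers were not taken to pair the libraries. The deviations of libraries 1, 2 and 3 from their group means had correlations of 0.187, -0.0961 and 0.292 between groups. Libraries numbered 1 and 3 correlated best with their own number and libraries numbered 2 did not. Pairs of unlike number within a library set were also positive: 0.16 for control 2 with air-dried 1 and 0.11 for control 3 with air-dried 2. All pairs across the sets were negative, down to -0.345 for control 3 with air-dried 1. Whether the numbers pair the libraries stayed unsettled. With the replicate block 150 of the 153 were called, and 4.13% of all genes. Rising neighbours numbered 24, and 11, 10 and 15 without controls 1, 2 and 3 and 15, 13 and 16 without air-dried 1, 2 and 3, where fewer samples were fitted.

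The number of genes chosen followed the limits set: 99 with a control mean from 2 FPKM, 298 at 1.5 times, 82 at 3 times and 330 with 2 times asked of the means alone; it was 145 after upper quartile scaling and 160 to 180 with a library left out. Their median ratio of means was 4.255 with known transcripts only, 3.906 from 2 FPKM, 4.195 under 5 FPKM, 3.763 from 1000 bp, 2.749 at 1.5 times, 5.918 at 3 times, 2.719 for the means alone, and 3.744 to 3.998 with a library left out; these follow from which genes each limit admits. Upper quartile scaling moved the median log2 change of all genes from 0.0080 to -0.0205. Absolute depth is unknown, so the error of low control values cannot be stated.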
